A study of Homo sapiens with 24 samples.

Results

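The proteasome degrades proteins marked with ubiquitin, and its genes carry the symbol stem PSM. Its barrel-shaped core particle has outer rings of alpha subunits (PSMA) and inner rings of beta subunits (PSMB), some of which cut the substrate, and a regulatory particle of ATPases (PSMC) and non-ATPases (PSMD) binds, unfolds and feeds the substrate in. Interferon induces 3 alternative catalytic subunits, PSMB8, PSMB9 and PSMB10, which take the places of PSMB5, PSMB6 and PSMB7 in newly assembled cores and form the immunoproteasome, which helps make peptides for MHC class I, and it induces the activator subunits PSME1 and PSME2 that cap the core. B cells and B cell lymphomas carry immunoproteasomes even without added interferon.

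All genes whose symbol is PSM followed by a letter from A to G and a number were taken, each by its brightest probe set with a single gene symbol, that is, the one with the highest mean over all 24 arrays. Of the 48 such genes in RefSeq, 42 were measured, among 19775 measured genes in all. These were 4 of the 5 interferon-induced genes (PSMB8, PSMB9, PSMB10 and PSME1) and 38 constitutive genes. The activator subunit PSME2 and the alpha subunit PSMA6 had only probe sets that the platform's table gives to several genes, and PSMB11, PSMC5, PSMD7 and PSMD13 had no probe set named here, so these 6 genes have no value. All members but 1 were bright: 41 of the 42 were among the brightest 20 percent of measured genes, with means over the 24 arrays of 9.11 to 12.6 on the log2 RMA scale. The exception was PSMA8, an alpha subunit known from the testis, at 3.39.

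The cells were Karpas422, a human line of diffuse large B cell lymphoma (DLBCL), and all groups share the Y641N change in EZH2, the methyltransferase that trimethylates lysine of histone H3. Cultures received an EZH2 inhibitor at 5 µM (EZH2i groups) or its vehicle DMSO (DMSO groups), and total RNA was taken at days 1, 2, 3 and 6, with 3 biological replicates in each of the 8 groups. The labels do not name the compound, and they do not say whether the replicates are separate cultures followed through time, so p-values measure the spread between these arrays. The line is 1 patient-derived lymphoma, and no line with unmutated EZH2 is among the samples. RNA of a whole culture was measured, so that fewer expressing cells and less RNA per cell cannot be told apart.

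The arrays resembled each other within their groups, with a mean correlation to the other replicates of 0.9957 to 0.9972, and none stood apart. Of the B cell markers, 5 of 6 were measured, with mean log2 levels of 8.37 to 12.63. Myeloid markers (6 genes) lay between 3.09 and 5.14, and stromal, endothelial and epithelial markers (6 genes) between 2.74 and 6.74. Of the 6 markers of T and NK cells, CD3G at 10.95 and CD3D at 7.12 were well above CD3E at 4.84 and CD2 at 3.71. RMA values give no detection calls, so a marker at 0 cannot be read from them. The mean level of the B cell list at day 6 was 10.92 to 11.03 in EZH2i arrays, against 10.53 to 10.65 in DMSO arrays, that of the T and NK list 5.71 to 5.89 in EZH2i arrays, against 5.89 to 6.03 in DMSO arrays. The myeloid list was at 3.94 to 4.04 in EZH2i arrays, against 4.17 to 4.20 in DMSO arrays, and the stromal, endothelial and epithelial list at 4.53 to 4.60 in EZH2i arrays, against 4.71 in each DMSO array. The mean of the B cell list was thus higher and those of the myeloid and stromal lists lower without overlap. The B cell markers did not move alike at day 6. Group means in EZH2i against DMSO were 11.60 against 10.50 for CD79B, 9.26 against 9.17 for CD79A and 11.81 against 11.93 for PAX5. PAX5 was the only B cell marker with a lower mean. The part of these shifts in the proteasome results was not tested. EZH2, whose enzyme the inhibitor blocks, was itself lower by day 6, with a log2 difference of -0.64 ± 0.12 (SE, limma adjusted p = 8.9e-05).

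The promoters of 4 members are given because they belong to members that moved in opposite directions or share a letter motif: PSMB9 and PSMB10 rose with the inhibitor, PSMB5 and PSMG4 fell. Each run is the 250 bases before the RefSeq start of the gene (GRCh38.p14), 5′ to 3′ on the gene's strand, and capitals mark the motif match named after the sequences. PSMB9 is at chr6:32853942-32854191 on the plus strand, PSMB10 at chr16:67936851-67937100 on the minus strand, PSMB5 at chr14:23035221-23035470 on the minus strand and PSMG4 at chr6:3258697-3258946 on the plus strand.
PSMB9: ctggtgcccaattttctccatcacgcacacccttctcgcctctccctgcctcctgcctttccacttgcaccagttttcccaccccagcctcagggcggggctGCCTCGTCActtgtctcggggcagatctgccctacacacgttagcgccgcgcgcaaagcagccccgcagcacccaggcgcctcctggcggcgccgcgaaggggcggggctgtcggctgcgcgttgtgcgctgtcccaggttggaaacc
PSMB10: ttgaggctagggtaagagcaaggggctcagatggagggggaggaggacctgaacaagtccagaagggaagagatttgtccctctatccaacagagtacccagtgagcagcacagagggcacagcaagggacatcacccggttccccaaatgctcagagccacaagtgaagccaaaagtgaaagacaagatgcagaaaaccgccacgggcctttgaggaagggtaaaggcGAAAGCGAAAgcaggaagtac
PSMB5: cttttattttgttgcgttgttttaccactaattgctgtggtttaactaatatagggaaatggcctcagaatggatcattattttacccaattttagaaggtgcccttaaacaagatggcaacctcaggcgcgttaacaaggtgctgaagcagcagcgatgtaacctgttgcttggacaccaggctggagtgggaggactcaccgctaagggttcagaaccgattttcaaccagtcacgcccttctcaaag
PSMG4: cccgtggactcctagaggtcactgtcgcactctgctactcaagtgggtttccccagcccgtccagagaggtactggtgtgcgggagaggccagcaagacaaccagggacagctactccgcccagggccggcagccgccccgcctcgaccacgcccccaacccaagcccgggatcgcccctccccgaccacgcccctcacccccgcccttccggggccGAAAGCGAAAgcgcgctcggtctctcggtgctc

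In PSMB10 and PSMG4 the capitals mark the interferon-stimulated response element, searched as GAAA, any 2 bases and GAAA again on both strands, and in PSMB9 a match on the reverse strand to TGACNNNGC, the letters bound by the proteasome gene activator NFE2L1. The 10 bases of the interferon motif are the same in both genes, gaaagcgaaa, 21 to 12 bases before the start in PSMB10 and 33 to 24 bases before it in PSMG4. Over windows of 300 bases (250 before and 50 after the start), this interferon motif was in 3.65% of the 27305 RefSeq promoters. It was in 3 of the 5 interferon-induced members (PSMB10, PSME1 and PSME2) and in 3 of 37 constitutive members (PSMA4, PSMB4 and PSMG4). The letters TGACNNNGC were in 13.6% of all promoters, in 3 of 5 interferon-induced members (PSMB9, PSME1 and PSME2) and in 10 of 37 constitutive members. The letters TTCNNNGAA, those of the gamma-activated site, were in 7.88% of all promoters, in 0 of 5 and in 5 of 37. None of the 3 motifs lies in the printed bases of PSMB5. A match describes the letters and is no evidence of binding.

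With the inhibitor, the interferon-induced and the constitutive members moved apart over the 6 days. By day 6, PSMB9, PSMB10 and PSME1 had risen by 1.49 to 1.65-fold, while 25 of the 38 constitutive members were called lower and none was called higher. In limma, with p adjusted over all genes and called under 0.05, 0 of 42 members were higher and 0 lower at day 1, and none had an unadjusted p under 0.05. The calls at day 2 were 0 higher and 1 lower (1 and 9 by unadjusted p), at day 3 they were 3 higher and 10 lower, and at day 6 they were 3 higher and 25 lower. Over all 19775 genes, 0.475% were called higher and 0.0101% lower at day 1, 3.57% and 0.824% at day 2, 8.64% and 7.65% at day 3, and 18.5% and 26.9% at day 6. The 25 members called lower at day 6 are 59.5% of the 42, against 26.9% of all genes. Among the brightest 20 percent of genes, where 41 of the members lie, 42.2% were called lower and 25.6% higher, a comparison added after the values were seen. The 3 called higher are 7.14%, below the 18.5% of all genes. With the replicate number as a block, 4 members were called higher and 30 lower at day 6, and the members this adds are given with their values below. The shares of all genes called in the blocked fit are not given here. The blocked counts, here and below, can therefore not be read against a background.

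The same course appears in the medians. The median log2 difference, EZH2i minus DMSO, over the 42 members was -0.02 at day 1, -0.04 at day 2, -0.13 at day 3 and -0.32 at day 6, where the median over all genes was -0.11. Over the 4 interferon-induced members it was 0.03, 0.20, 0.37 and 0.62 at days 1, 2, 3 and 6. Over the 38 constitutive members it was -0.15 at day 3 and -0.35 at day 6, and 35 of these 38 had a difference below 0 at day 6. The groups of arrays did not overlap at day 6 for 33 members, with the EZH2i arrays above the DMSO arrays in 4 and below them in 29. In all genes, 19.8% had the EZH2i arrays above and 32.3% below.

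**Figure D1:**
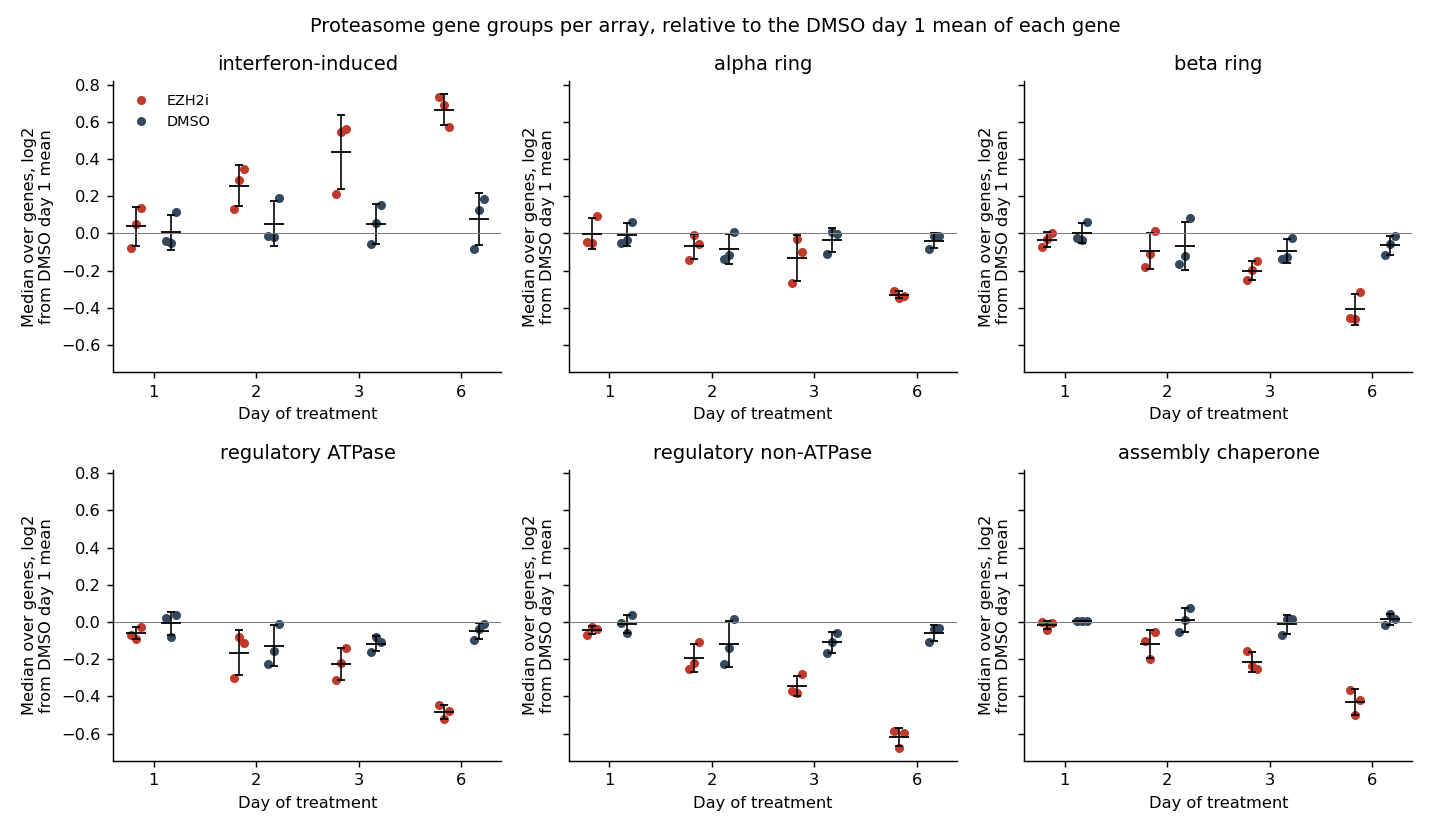
Each point is 1 array, drawn as the median over the genes of a role of their log2 change from the DMSO day 1 mean; columns run over days 1, 2, 3 and 6, EZH2i left of DMSO, with bars for mean ± SD of 3 arrays. At day 6 the interferon-induced members sit at 0.57 to 0.73 in EZH2i arrays and at -0.08 to 0.19 in DMSO arrays, while the non-ATPases sit at -0.68 to -0.58 in EZH2i arrays and at -0.11 to -0.03 in DMSO arrays.

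PSMB9, the immunoproteasome subunit that replaces the caspase-like PSMB6, rose at days 3 and 6. Its log2 level at day 6 was 12.11, 12.12 and 12.06 in EZH2i arrays, against 11.24, 11.43 and 11.46 in DMSO arrays. All EZH2i arrays lay above all DMSO arrays. The difference was 0.73 ± 0.09 (SE, n = 3 arrays a group), or 1.65-fold, with a limma adjusted p of 7.2e-07. At day 3 its level was 11.60, 11.94 and 12.00 in EZH2i arrays, against 11.30, 11.38 and 11.44 in DMSO arrays. The groups were already apart, by 0.47 ± 0.09 (limma adjusted p = 0.00068), although EZH2i replicate 1 was lower than its partners. The difference was 0.20 at day 2 (limma adjusted p = 0.25), where the arrays did not overlap either, and 0.02 at day 1.

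PSMB10, which replaces the trypsin-like PSMB7, likewise rose at days 3 and 6. Its log2 level at day 6 was 10.62, 10.53 and 10.34 in EZH2i arrays, against 9.79, 10.00 and 9.97 in DMSO arrays. The groups did not overlap, and the difference was 0.58 ± 0.09, or 1.49-fold (limma adjusted p = 2.2e-05). At day 3 its level was 10.06, 10.22 and 10.25 in EZH2i arrays, against 9.84, 9.71 and 9.90 in DMSO arrays, a difference of 0.35 ± 0.09 (limma adjusted p = 0.0096). The call at day 3 did not outlast leaving out DMSO replicate 2 (limma adjusted p = 0.058) or EZH2i replicate 3 (limma adjusted p = 0.051).

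PSME1, the alpha chain of the interferon-inducible activator that opens the core particle, rose at the same days. Its log2 level at day 6 was 13.15, 13.19 and 13.16 in EZH2i arrays, against 12.30, 12.52 and 12.68 in DMSO arrays. The 3 EZH2i arrays lay close together and above every DMSO array, with a difference of 0.66 ± 0.12, or 1.59-fold (limma adjusted p = 6.5e-05). At day 3 it was 12.66, 12.99 and 12.98 in EZH2i arrays, against 12.39, 12.44 and 12.63 in DMSO arrays. The difference of 0.39 ± 0.12 was called (limma adjusted p = 0.023), but was lost without any of 4 single arrays, DMSO replicates 1 and 2 and EZH2i replicates 2 and 3, with limma adjusted p of 0.074 to 0.11.

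PSMB8, which replaces the chymotrypsin-like PSMB5, was not called at any single day. Its log2 level at day 6 was 11.71, 11.78 and 11.76 in EZH2i arrays, against 11.36, 11.53 and 11.59 in DMSO arrays. The arrays did not overlap, yet the difference of 0.26 ± 0.12 missed the threshold (limma adjusted p = 0.085). At day 3 it was 11.50, 11.83 and 11.82 in EZH2i arrays, against 11.26, 11.45 and 11.55 in DMSO arrays, with a difference of 0.30 ± 0.12 (limma adjusted p = 0.097). In both groups replicate 1 was the lowest array. With the replicate number as a block, PSMB8 was called at day 3 (limma adjusted p = 0.0031) and at day 6 (0.0041). Averaged over the 4 days, its difference was 0.21 ± 0.06 (limma adjusted p = 0.0075), in a comparison that called 17.1% of all genes higher and 27.4% lower, and 4 and 22 of the 42 members.

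**Figure D2:**
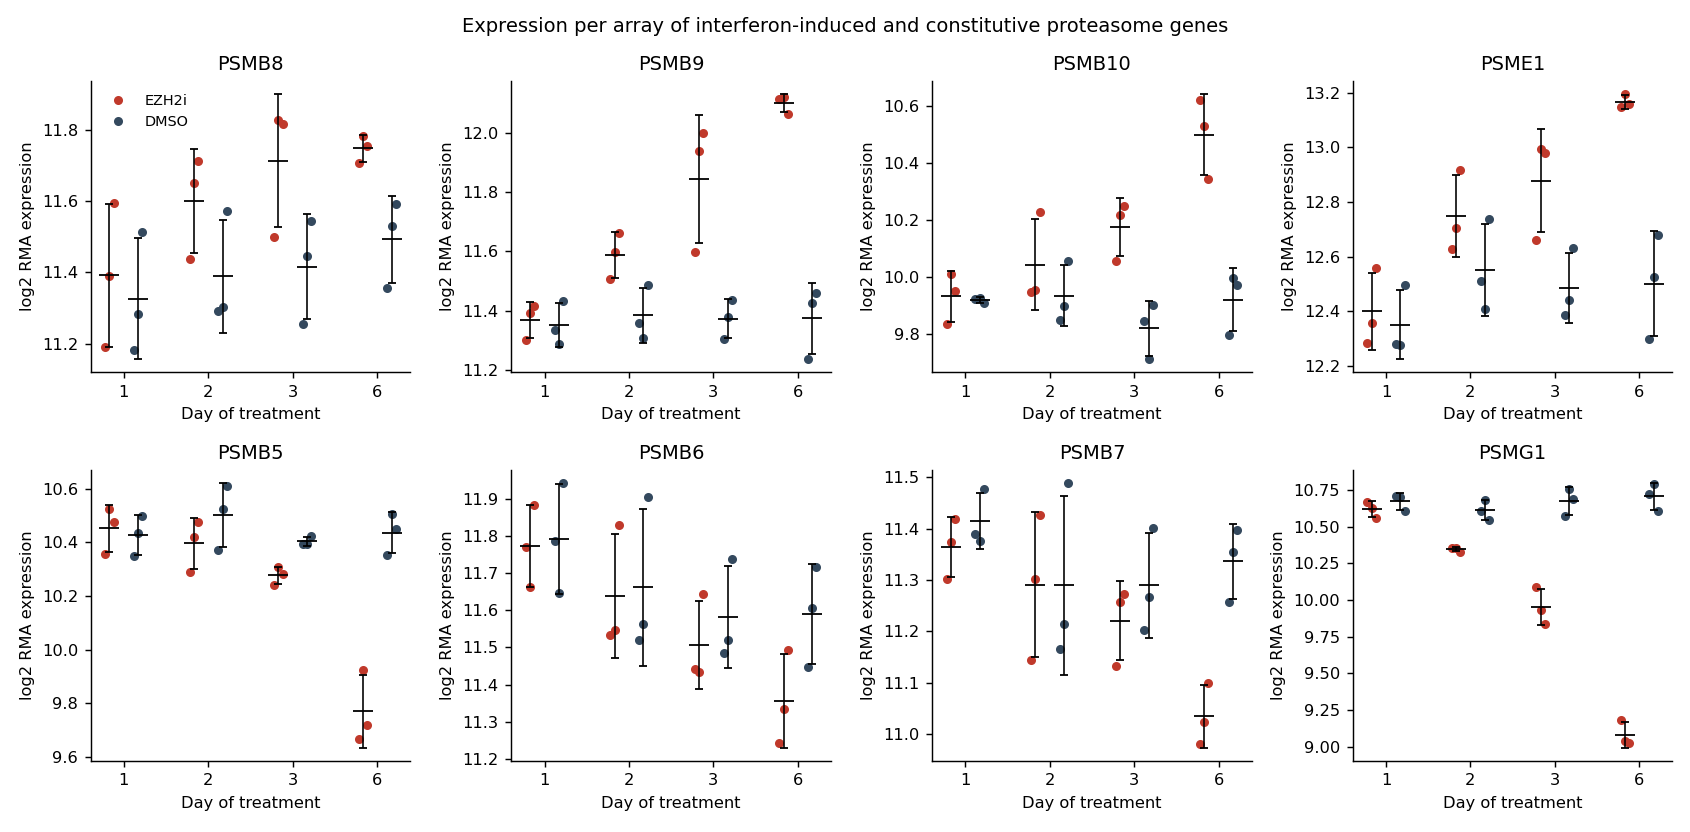
Log2 RMA expression on each array of 8 members at days 1, 2, 3 and 6, with EZH2i arrays left of DMSO arrays and black bars for mean ± SD of 3 arrays; each panel has its own vertical range. PSMB9, PSMB10 and PSME1 rise in EZH2i arrays by day 6, whereas PSMB5, PSMB7 and PSMG1 are lower there than in DMSO arrays.

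Of the constitutive partners, PSMB5 and PSMB7 fell and PSMB6 was not called. The log2 level of PSMB5, the chymotrypsin-like subunit at which most proteasome inhibitors in clinical use are aimed, was 9.67, 9.92 and 9.72 at day 6 in EZH2i arrays, against 10.35, 10.51 and 10.45 in DMSO arrays. The groups were well apart, by -0.67 ± 0.08, or 0.63-fold (limma adjusted p = 4.4e-07). At day 3 its difference was -0.13 (limma adjusted p = 0.33), and the change in its difference between day 3 and day 6, -0.54 ± 0.11, was itself called (limma adjusted p = 0.0024).

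PSMB7 had log2 levels at day 6 of 10.98, 11.02 and 11.10 in EZH2i arrays, against 11.26, 11.35 and 11.40 in DMSO arrays. The arrays did not overlap, and the difference of -0.30 ± 0.09 was called (limma adjusted p = 0.0073). It was no longer called once all differences were taken relative to that of the median gene (limma adjusted p = 0.088) or with the mean of its probe sets (0.077). PSMB6 had 11.24, 11.33 and 11.49 in EZH2i arrays, against 11.45, 11.61 and 11.72 in DMSO arrays. These overlapped, and the difference of -0.23 ± 0.12 was not called (limma adjusted p = 0.11), although with the replicate block it was (limma adjusted p = 0.0041).

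Subtracting each constitutive subunit from its interferon-induced replacement within the same array removes what an array adds to both. The 2 probe sets of a pair differ in their response to RNA, so only the change of the difference between groups is described, with no test. At day 6 PSMB8 minus PSMB5 was 2.04, 1.86 and 2.04 on the log2 scale in EZH2i arrays, against 1.00, 1.03 and 1.14 in DMSO arrays. That is a shift of 0.92, and the groups had not overlapped since day 2, with shifts of 0.04, 0.32 and 0.43 at days 1, 2 and 3. In EZH2i arrays PSMB9 minus PSMB6 averaged 0.74 ± 0.15 at day 6, against -0.22 ± 0.04 in DMSO arrays (SD, n = 3 each), and the shifts at days 1, 2, 3 and 6 were 0.04, 0.23, 0.55 and 0.96. For PSMB10 minus PSMB7 the day 6 averages were -0.54 ± 0.20 in EZH2i arrays and -1.42 ± 0.05 in DMSO arrays, with shifts of 0.06, 0.11, 0.42 and 0.88. The 3 pairs thus shifted by similar amounts at day 6, through different shares of their members: the PSMB5 difference was the larger in the PSMB8 pair, and the PSMB9 and PSMB10 differences were the larger in theirs.

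**Figure D3:**
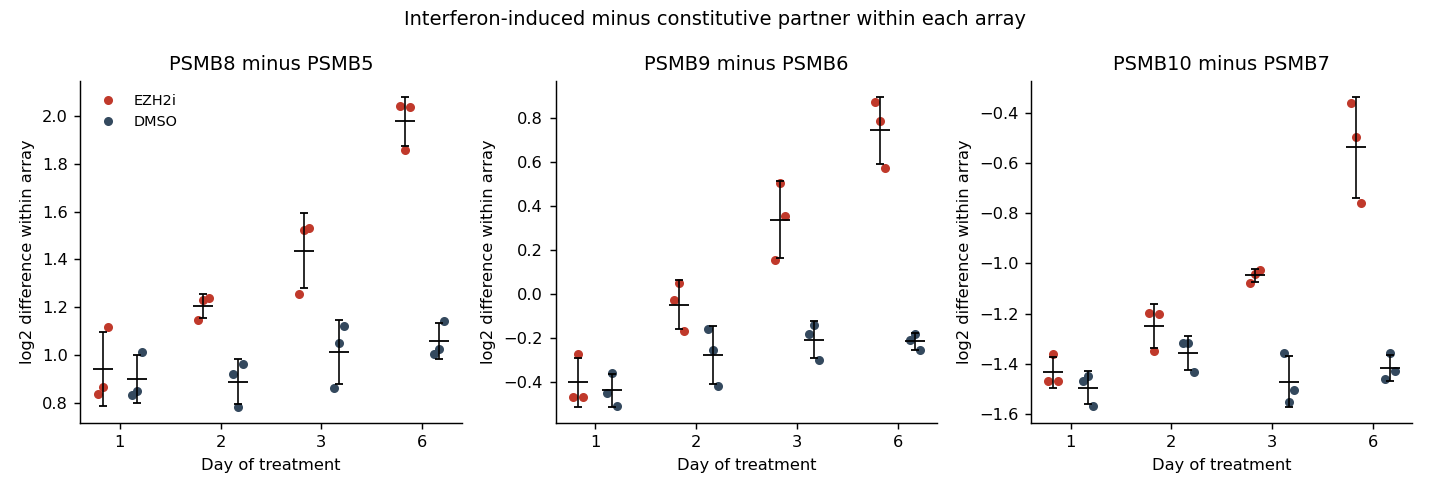
Log2 level of PSMB8, PSMB9 or PSMB10 minus that of PSMB5, PSMB6 or PSMB7 within each array, at days 1, 2, 3 and 6, EZH2i left of DMSO, with mean ± SD of 3 arrays. The EZH2i arrays lie above the DMSO arrays at days 3 and 6 in each pair, by 0.88 to 0.96 at day 6.

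In the core particle, 5 of the 7 measured alpha subunits (71.4%), which form the gate of the barrel, were called lower at day 6 (median -0.33). Of the 7 measured constitutive beta subunits 4 (57.1%) were called lower (median -0.30), and no subunit of either ring was called higher. Of all genes 26.9% were called lower, and of the brightest 20 percent, where all of these subunits but PSMA8 lie, 42.2%. Among alpha subunits, PSMA3 and PSMA5 had a log2 difference of -0.44 each (limma adjusted p = 0.00013 and 7.5e-05), and PSMA7 one of -0.37 (3.2e-05). PSMA2 had -0.33 (limma adjusted p = 0.002) and PSMA1 -0.22 (0.03), and the PSMA1 call was lost without DMSO replicate 2 or 3 or EZH2i replicate 1 or 2 (limma adjusted p of 0.069 to 0.087). PSMA4 was at -0.15 (limma adjusted p = 0.069) and PSMA8, the dim testis subunit, at 0.30 ± 0.14 (limma adjusted p = 0.086), neither called. PSMA8 was called higher with the replicate number as a block within each day (limma adjusted p = 0.026). Of the beta subunits without a cutting site, PSMB2 fell by 0.58 on the log2 scale (limma adjusted p = 5.5e-08) and PSMB1 by 0.41 (1.2e-05), while PSMB3 at -0.24 (0.11) and PSMB4 at -0.10 (0.17) were not called. PSMB3 was called with the replicate block (limma adjusted p = 0.0033). PSMB4 was called lower with the mean of its probe sets (limma adjusted p = 0.0044).

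The regulatory particle had the lowest medians. Of 9 measured non-ATPases, 6 (66.7%) were called lower at day 6 (median -0.60), and of 5 ATPases 4 (80%, median -0.44). Of all genes 26.9% were called lower, and of the brightest 20 percent 42.2%. PSMD12, a scaffold subunit of the lid, had log2 levels at day 6 of 10.27, 10.05 and 10.31 in EZH2i arrays, against 11.06, 11.10 and 11.15 in DMSO arrays. The gap of -0.89 ± 0.08 (limma adjusted p = 3.2e-09) was wide beside the spread within groups, and PSMD12 was already called at day 3, at -0.46 (0.00017). PSMD14, the deubiquitinase that clips ubiquitin chains off substrates, had 10.90, 10.87 and 10.92 in EZH2i arrays, against 11.54, 11.51 and 11.50 in DMSO arrays. The arrays of each group lay close together and the groups were apart, with a difference of -0.62 (limma adjusted p = 1.3e-08).

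PSMD11, another lid scaffold, was at 10.04, 10.09 and 10.34 in EZH2i arrays, against 10.79, 10.86 and 10.95 in DMSO arrays, with a difference of -0.71 ± 0.10 (limma adjusted p = 6.3e-06). The large base scaffolds PSMD1 and PSMD2 had differences of -0.60 (limma adjusted p = 1.3e-07) and -0.64 (7.1e-05), and the lid subunit PSMD6 one of -0.29 (0.00086). The members not called were the lid subunits PSMD3 at -0.34 (limma adjusted p = 0.12) and PSMD8 at -0.22 (0.071), both called with the replicate block (limma adjusted p = 0.00062 and 0.01), and the ubiquitin receptor PSMD4. PSMD4 differed by -0.00 (limma adjusted p = 0.98), and the sign of so small a value has no meaning.

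PSMC3, 1 of the ATPases that unfold the substrate, varied much between replicates. Its log2 level at day 6 was 8.94, 9.21 and 9.40 in EZH2i arrays, against 9.64, 10.12 and 10.17 in DMSO arrays. The groups did not overlap, and replicate 1 was the lowest array in both, with a difference of -0.79 ± 0.23 (limma adjusted p = 0.0085). PSMC1 differed by -0.53 (limma adjusted p = 4.2e-07), PSMC2 by -0.44 (2.1e-06) and PSMC4 by -0.27 (0.013), and PSMC6 at -0.11 (0.3) was not called. PSMC4 lost its call without EZH2i replicate 1 (limma adjusted p = 0.082) and relative to the median gene (0.16).

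The assembly chaperones included the member that changed most. PSMG1, which pairs with PSMG2 to build the alpha ring, had log2 levels at day 6 of 9.18, 9.04 and 9.02 in EZH2i arrays, against 10.72, 10.79 and 10.61 in DMSO arrays. No other member had groups so far apart: the difference was -1.63 ± 0.08, or 0.324-fold (limma adjusted p = 3.7e-13), and kept its call under all 16 alternatives, from -1.68 to -1.52. At day 3 it was 10.09, 9.93 and 9.84 in EZH2i arrays, against 10.57, 10.76 and 10.69 in DMSO arrays, a difference of -0.72 ± 0.08 (limma adjusted p = 6.4e-07). PSMG1 was also the 1 member called at day 2, with 10.36, 10.36 and 10.33 in EZH2i arrays, against 10.61, 10.68 and 10.55 in DMSO arrays. This difference of -0.26 ± 0.08 (limma adjusted p = 0.049) lost its call when any 1 of the 6 arrays was left out (limma adjusted p of 0.059 to 0.19).

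Its partner PSMG2 had a day 6 difference of -0.23 (limma adjusted p = 0.024), a call lost without DMSO replicate 2 or 3 or EZH2i replicate 1 or 2 (0.053 to 0.089). PSMG4, which pairs with PSMG3 at the next step of the same ring, had 9.88, 9.65 and 9.72 in EZH2i arrays, against 10.58, 10.58 and 10.53 in DMSO arrays. The DMSO arrays were close to each other and all above the EZH2i arrays, with a difference of -0.82 ± 0.07 (limma adjusted p = 9.3e-10). With the mean of its probe sets the PSMG4 difference was -0.35, still called (limma adjusted p = 4.9e-05). PSMG3 differed by -0.47 (limma adjusted p = 7e-06) and PSMD5, a chaperone of the ATPase ring, by -0.40 (0.00035). The remaining ATPase ring chaperones PSMD9 at -0.03 (limma adjusted p = 0.8) and PSMD10 at 0.03 (0.81) were not called. In all, 5 of 7 chaperones (71.4%) were called lower, against 26.9% of all genes and 42.2% of the brightest 20 percent.

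Of the activators and the inhibitor outside the interferon group, PSME3 fell. PSME3 forms a nuclear cap that works without ubiquitin, and its log2 level at day 6 was 8.85, 8.91 and 8.81 in EZH2i arrays, against 9.73, 9.77 and 9.81 in DMSO arrays. The groups were far apart, by -0.92 ± 0.07 (limma adjusted p = 6e-10), and had been apart by -0.49 at day 3 (3.6e-05). PSME3 and PSME1 are related in sequence and both cap the core, and here their differences had opposite signs. PSME4, a large nuclear activator, was called lower at day 3 (-0.35, limma adjusted p = 0.037) and not at day 6 (-0.23, 0.11), where the replicate block called it (0.0085). The inhibitor PSMF1 differed by 0.08 at day 6 (limma adjusted p = 0.41).

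**Figure D4:**
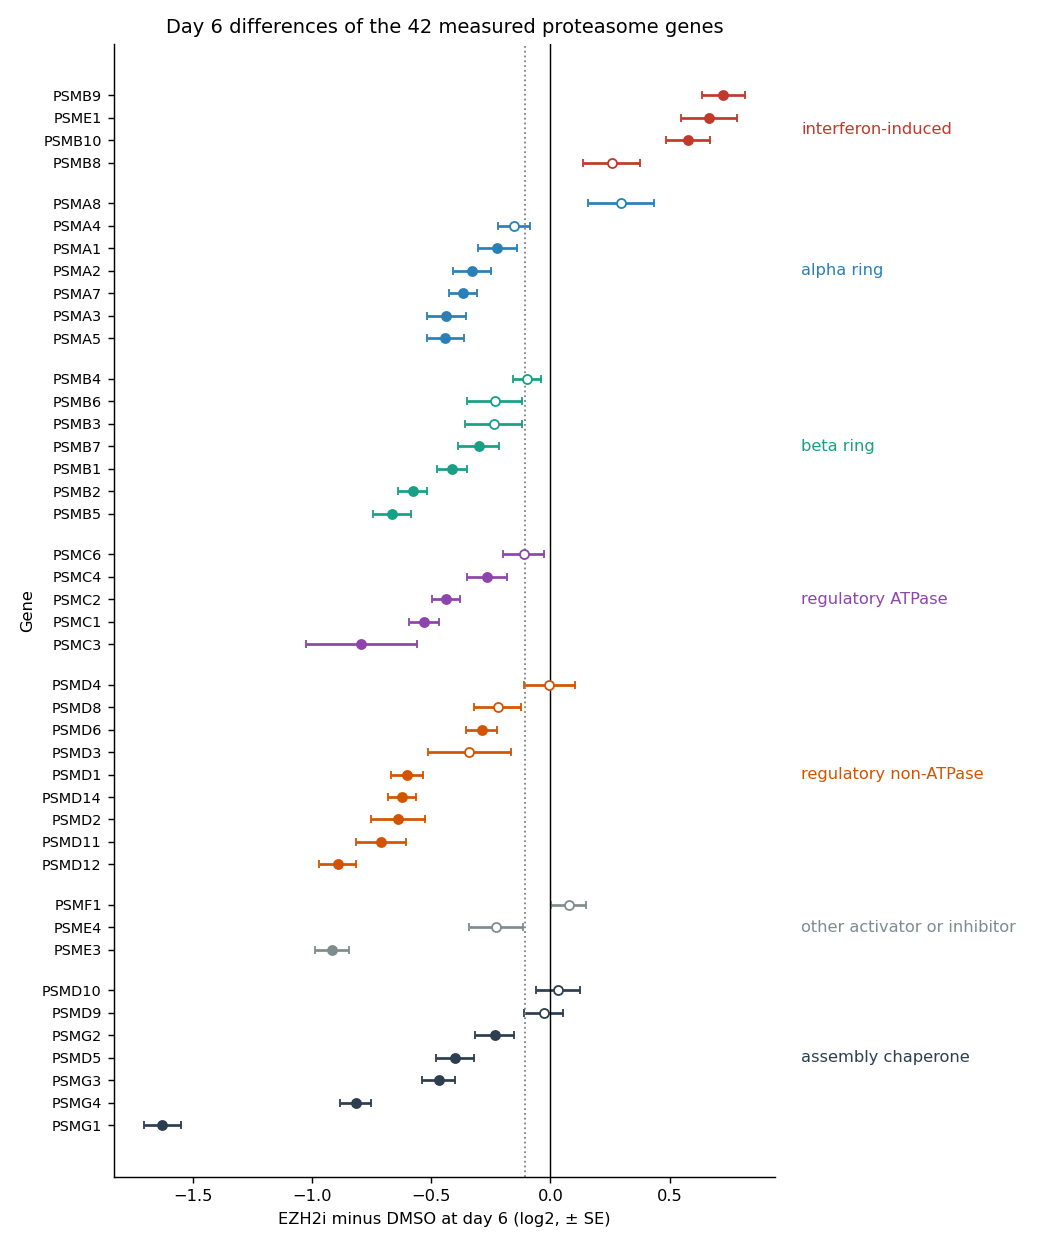
Log2 difference, EZH2i minus DMSO at day 6, of each of the 42 members, ordered by role, with SE from limma; filled points passed an adjusted p of 0.05 and open points did not. The dotted line marks the median over all genes at -0.11, and PSMG1 at -1.63 and PSMB9 at 0.73 are the ends of the range.

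Most constitutive members called at day 3 were called again at day 6. The 10 called lower there were PSMB2, PSMC1, PSMD1, PSMD12, PSMD14, PSME3, PSME4, PSMG1, PSMG3 and PSMG4, and 9 of them were also called lower at day 6. The other 16 called lower at day 6 were not called at day 3 in the fit without the replicate block. At day 3 the 10 are 23.8% of the members, against 7.65% of all genes and 17.4% of the brightest 20 percent. How often genes in general kept a day 3 call at day 6 was not counted. With the replicate block, 16 members were called lower at day 3, with PSMC2, PSMD2, PSMD3, PSMD5, PSMD6 and PSMD11 added. All of the added members but PSMD3 are among those that the fit without the block called lower at day 6 only. The day 3 call of PSMB2 was lost without any 1 of the 6 arrays (limma adjusted p of 0.054 to 0.12), and those of PSMD1, PSME4 and PSMG3 were each lost in 4 of the 6 cases (0.069 to 0.14). DMSO replicates 1 to 3 and EZH2i replicates 2 and 3 were among the arrays whose absence ended these 3 calls, and EZH2i replicate 1 was not. A fit of the day 3 groups alone ended the calls of PSMC1 (limma adjusted p = 0.065) and PSME1 (0.061), among others. In the test of the difference itself, 3 members had a higher and 19 a lower effect at day 6 than at day 1, against 12.3% and 14.4% of all genes and 17.4% and 33.3% of the brightest 20 percent. With the replicate block 23 were lower, with PSMB7, PSMC3, PSMC4 and PSMD6 added. Between day 3 and day 6 the effect was lower in 12 members and higher in 0, against 6.53% and 5.98% of all genes and 18.7% and 8.22% of the brightest 20 percent, and no interferon-induced member was called in that test. With the replicate block 15 were lower, with PSMA5, PSMB1 and PSMD2 added. Of the 12, the call of PSMC1 was lost when any 1 of the 12 arrays was left out, that of PSMC2 in 9 of these cases and those of PSMA3 and PSMD11 in 8 each (limma adjusted p of 0.051 to 0.11).

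Time in culture alone moved few genes, whether members or not. From day 1 to day 6, 0 of the 42 were called higher and 0 lower in DMSO (limma; 1 had an unadjusted p under 0.05), where 0.238% of all genes were called higher and 0.0506% lower. In EZH2i cultures over the same time, 4 were called higher and 29 lower, against 16.9% and 24% of all genes. Of the brightest 20 percent of genes, 24.2% were called higher and 43% lower. With the replicate block 33 were lower, with PSMA4, PSMC3, PSMD3 and PSMG2 added. The 4 higher were PSMB8, PSMB9, PSMB10 and PSME1. PSMB8 differed by 0.36 ± 0.12 (limma adjusted p = 0.02), and this call was lost without EZH2i day 1 replicate 1 (0.26, limma adjusted p = 0.13) and without EZH2i day 6 replicate 2 (0.34, 0.055). Among those called lower, PSMA1, PSMB3, PSMC4, PSMC6, PSMD8 and PSME4 also lost their calls without 1 or more single arrays (limma adjusted p of 0.051 to 0.21). These comparisons share the day 6 and day 1 arrays with those above.

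A further 39 probe sets of 22 members can be read beside the ones used. At day 6, 2 were called higher, 11 lower and 26 not at all, by limma on all single-symbol probe sets. Of all genes, each by its brightest probe set, 18.5% were called higher and 26.9% lower. The share called lower among these further probe sets was near that of all genes. They are the dimmer probe sets of their genes, however, and the share among such probe sets of all genes was not counted. The PSME3 probe set next in brightness differed by -0.89, against -0.92 in the one used, that of PSMD1 by -0.71, against -0.60, and that of PSMB1 by -0.38, against -0.41. Both probe sets called higher belong to genes called lower, and both were dim. That of PSMB2, with a mean level of 4.84, was higher by 2.51 ± 0.15 (limma adjusted p = 1.9e-11), and that of PSMA3, with a mean level of 5.73, by 0.68 ± 0.15 (0.00082). Where in the transcripts these probe sets lie is not analysed here. The mean of all PSMB2 probe sets was thereby higher at day 6, by 0.20 (limma adjusted p = 0.0081), the opposite of its brightest probe set. The mean of probe sets also ended the day 6 calls of PSMA3 (-0.12), PSMA5 (-0.07), PSMC2 (-0.10), PSMD5 (-0.09) and PSMD6 (-0.05), with limma adjusted p of 0.19 to 0.54, and the day 3 call of PSMG4 (-0.08, 0.4). It left PSMD12 (-0.55), PSMD11 (-0.43), PSMB1 (-0.24) and PSMA2 (-0.21) called at day 6 and PSMD12 at day 3 (-0.28), each with a difference over 1.5 times smaller than that of the brightest probe set.

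Of 18 measured proteasome partners outside the PSM symbols, 11 (61.1%) were called lower at day 6 and 1 (5.56%) higher, against 26.9% and 18.5% of all genes (median -0.28). The exception was AKIRIN2, which helps to import proteasomes into the nucleus, with log2 levels of 11.12, 11.24 and 11.26 in EZH2i arrays, against 9.62, 9.75 and 9.85 in DMSO arrays. It was far above in every EZH2i array, by 1.47 ± 0.13 (limma adjusted p = 4.1e-09). The deubiquitinase UCHL5, which sits on the regulatory particle, had 9.58, 9.22 and 9.46 in EZH2i arrays, against 10.67, 10.63 and 10.62 in DMSO arrays. It fell by 1.22 on the log2 scale (SE 0.08, limma adjusted p = 3.9e-11), and the other deubiquitinase of the particle, USP14, differed by -0.71 and its receptor ADRM1 by -0.48, both called. The shuttle factors UBQLN4 and RAD23B differed by -0.73 and -0.44. With the mean of their probe sets USP14 (-0.11, limma adjusted p = 0.32) and UBQLN4 (-0.16, 0.14) were no longer called, and RAD23B was at -0.17 (0.043).

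On the list of interferon pathway and immunoproteasome regulators, 16 of 21 measured genes (76.2%) were called higher at day 6 and 0 lower by limma (1 lower under 5 of the alternatives; median 0.71), against 18.5% and 26.9% of all genes. The other 5 were not called, and 10 were called higher at day 3, against 8.64% of all genes. IRF1, which drives PSMB9 and TAP1 from a shared promoter, had log2 levels at day 6 of 7.95, 8.04 and 8.04 in EZH2i arrays, against 6.10, 6.23 and 6.22 in DMSO arrays. All EZH2i arrays were far above, by 1.83 ± 0.18 (limma adjusted p = 2.9e-08), after 1.02 at day 3 (0.00036). NLRC5, the transactivator of MHC class I genes, had 9.16, 8.78 and 8.82 in EZH2i arrays, against 7.92, 7.37 and 7.51 in DMSO arrays, a difference of 1.32 ± 0.21 (limma adjusted p = 1.9e-05). The feedback inhibitor SOCS1 (1.95), the interferon factors IRF7 (1.89) and IRF9 (1.81), the kinase JAK1 (1.75) and STAT3 (1.43) were the other genes of that list with the largest called differences of the brightest probe set. When all probe sets of a gene were averaged, SOCS1 was at 0.58, STAT3 at 0.66 and JAK1 at 0.98, all still called, while IRF7 (1.89) and IRF9 (1.81) kept their values.

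Of 20 measured genes that trim and load the proteasome's peptides, 12 (60%) were called higher at day 6, against 18.5% of all genes, and 7 (35%) lower, near the 26.9% of all genes (median 0.37). In RefSeq order PSMB8 lies between TAP2 and TAP1 and PSMB9 between TAP1 and HLA-DMB. TAP1, a chain of the peptide transporter, had log2 levels of 11.78, 11.63 and 11.48 in EZH2i arrays, against 10.39, 10.40 and 10.36 in DMSO arrays. It was higher by 1.25, and its partner TAP2 by 1.34 ± 0.10, or by 0.41 (limma adjusted p = 0.00064) with the mean of its probe sets. The class I chains HLA-E (2.1), HLA-F (1.84), HLA-B (1.61) and HLA-C (1.5) and the loading factor TAPBPL (1.61) had the largest differences of the list, and all were called. Among those called lower, the cytosolic peptidases THOP1 at -0.89 and TPP2 at -0.79, which cut peptides that leave the proteasome, were named after their values were seen.

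NFE2L1 is a factor through which cells raise constitutive proteasome genes when the proteasome is impaired. Of 15 measured genes of its route, 3 (20%) were called higher and 5 (33.3%) lower at day 6 (median -0.16), shares near the 18.5% and 26.9% of all genes. NFE2L1 itself differed by 0.24 ± 0.17 and was not called (limma adjusted p = 0.24). The small MAF partner MAFF (-1.11), the adaptor KEAP1 (-0.59) and the VCP cofactor UFD1 (-0.53) were called lower, and FBXW7 (0.89), which marks NFE2L1 for degradation, OGT (0.68) and NGLY1 (0.48, or 0.78 with the mean of its probe sets), which removes sugars from it, were called higher. Of 15 measured ubiquitin genes and ligase parts, 3 (20%) were called higher and 6 (40%) lower (median -0.17). These shares too are not far from those of all genes, and from the 42.2% of bright genes called lower. UBE2L6, the conjugating enzyme of the interferon-induced modifier ISG15, was higher by 1.46 and the ubiquitin gene UBB by 0.40, while UBE2C (-1.03) and UBE2S (-0.62), which serve the anaphase-promoting complex, and the activating enzymes UBA1 (-0.51) and UBA6 (-0.43) were lower.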

How the data were processed

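The authors deposited log2 values for 54613 probe sets of 24 Affymetrix U133 Plus 2 arrays, hybridised with biotin-labelled RNA from a Trizol extraction, per the labels. The submitters' processing notes name RMA and R 2.10.1. RMA makes the arrays' value distributions alike, so differences are relative to the other genes. The log base is not stated; values of 1.72 to 14.33 have the range of log2.

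Names came from the platform's table (41091 probe sets with 1 symbol, 1801 with several, left out, and 11721 with none), updated by Entrez ID for 41037, with 54 kept. Each of 19775 genes is represented by its brightest probe set. Groups follow the labels. All differences were tested with limma 3.58.1 (R 4.3.3; 1 coefficient for each of 8 groups, eBayes; 16 residual and 5.22 prior degrees of freedom), 2-sided, with Benjamini-Hochberg adjustment across every measured gene, and called under 0.05. The smallest p of an exact permutation test at 3 against 3 would be 0.1. The fit was tested on simulated data, where it missed more of the small changes than of the large ones. The number of arrays limits the precision.

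Per-array values are given for the interferon-induced members, their partners and the members with the largest called differences at day 6, and list genes by the same measure, up to 6 a list, plus IRF1, NLRC5, TAP1 and NFE2L1. PSMD14 was added after its values were seen. Members, lists and alternatives were chosen with earlier results of these data known. Promoters are RefSeq's for GRCh38.p14, with 42 of the 48 genes matched.

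Same-numbered EZH2i and DMSO arrays deviated together from their group means, with correlations of 0.19 to 0.55 at days 1, 3 and 6. At day 2 they were 0.36, 0.04 and 0.43, so that only replicate 2 was near 0. Between arrays of different groups the median was 0.24 for the same number and -0.13 for other numbers. The labels say nothing of shared batches. The replicate block added PSMD12 to the members called lower at day 2. The numbers thus pair the arrays by their values, and blocked counts or values stand beside the results at days 3 and 6 that they change. The calls of both fits had been seen when this was decided. Python 3.11.15 and matplotlib 3.10.9 drew the figures.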

Additional observations from a re-analysis of the deposited data

Results flagged for a closer look

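The response to the inhibitor differed between days in the members and list genes below, by a limma test of the difference itself with p adjusted over all genes; values are the log2 difference, EZH2i minus DMSO, at day 6 minus that at day 1. Among members it was higher at day 6 for PSMB10 0.56, PSMB9 0.71 and PSME1 0.62. It was lower at day 6 for PSMA2 -0.34, PSMA3 -0.41, PSMA5 -0.43, PSMA7 -0.37, PSMB1 -0.41, PSMB2 -0.53, PSMB5 -0.69, PSMC1 -0.45, PSMC2 -0.35, PSMD1 -0.57, PSMD11 -0.70, PSMD12 -0.78, PSMD14 -0.62, PSMD2 -0.62, PSMD5 -0.38, PSME3 -0.87, PSMG1 -1.58, PSMG3 -0.46 and PSMG4 -0.86. PSMB8, at 0.19 (limma adjusted p = 0.45), was not among them. These are 3 and 19 of 42 members, against 12.3% and 14.4% of all genes. The call of PSMA2 was lost in 8 of the 12 cases of 1 array left out, all but those of DMSO day 1 replicate 3, EZH2i day 1 replicate 2 and replicate 1 of both day 6 groups, and that of PSMD5 without EZH2i day 1 replicate 2 or DMSO day 6 replicate 2 (limma adjusted p of 0.052 to 0.079).

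Between day 6 and day 3 the response of these members was lower: PSMA3 -0.37, PSMB2 -0.39, PSMB5 -0.54, PSMC1 -0.28, PSMC2 -0.27, PSMD1 -0.39, PSMD11 -0.46, PSMD12 -0.43, PSMD14 -0.30, PSME3 -0.43, PSMG1 -0.90 and PSMG4 -0.49. The PSMC1 call was lost without any 1 of the 12 arrays. The PSMC2 call was kept only without EZH2i day 3 replicate 1, DMSO day 6 replicate 3 or EZH2i day 6 replicate 1. The PSMA3 and PSMD11 calls were both kept without EZH2i day 3 replicate 1 or DMSO day 6 replicate 1, that of PSMA3 also without DMSO day 3 replicate 2 or EZH2i day 6 replicate 2, and that of PSMD11 without DMSO day 3 replicate 3 or EZH2i day 6 replicate 3. Both were lost in the other 8 cases. PSMB9, PSMB10 and PSME1 had changes of 0.25, 0.22 and 0.27 in that test and were not called (limma adjusted p of 0.22 to 0.33).

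Of the named genes outside the PSM symbols, the response was higher at day 6 than at day 1 for AKIRIN2 1.42, FBXW7 0.71, HLA-B 1.43, HLA-C 1.28, HLA-E 1.92, HLA-F 1.70, IRF1 1.65, IRF7 1.67, IRF9 1.54, JAK1 1.33, NGLY1 0.46, NLRC5 1.32, OGT 0.62, SOCS1 1.72, STAT3 1.26, TAP1 1.20, TAP2 1.27, TAPBPL 1.69, UBB 0.34 and UBE2L6 1.44. It was lower for ADRM1 -0.43, EZH2 -0.69, KEAP1 -0.60, MAFF -1.11, RAD23B -0.38, UBE2C -1.07, UBQLN4 -0.72, UCHL5 -1.12, UFD1 -0.48 and USP14 -0.67.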

How the results depend on the processing

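The counts of members and the named differences were recomputed under the alternatives, 16 for each comparison of 1 day, and those for list genes, roles, lists and subunit pairs were added after seeing the data. At day 6, leaving out 1 array at a time gave 3 to 4 members higher and 23 to 26 lower (3 and 25 with all arrays), and the subtraction of the median gene's difference (the median-gene shift) and the replicate block within each day each gave 5 higher, with PSMB8 and PSMA8 added. The median-gene shift ended the calls of PSMA1, PSMB7, PSMC4 and PSMG2. The mean of probe sets ended those of PSMA1, PSMA3, PSMA5, PSMB7, PSMC2, PSMD5 and PSMD6, added PSMA4 and PSMB4 and turned PSMB2 higher. Both left fewer members called lower than the 25 of the main fit. Renormalized values and the compared groups alone ended the calls of PSMA1 and PSMG2. At day 3 (3 higher, 10 lower), leaving out 1 array gave 1 to 4 higher, with 1 without DMSO replicate 2 and without EZH2i replicate 3, and 6 to 9 lower, with 6 without DMSO replicate 1 and EZH2i replicates 2 and 3. The replicate block gave 16 lower, or 17 within each day, and the median-gene shift and the fit of the compared groups alone gave 6 each. At day 2 (1 lower), the count was 2 with either replicate block, without the dimmest 40 percent of genes and with array weights, and 0 with renormalized values, array medians subtracted, the median-gene shift, the compared groups alone and each array left out (0 to 0). For day 6 against day 1 (19 lower) the mean of probe sets gave 12, and for day 6 against day 3 (12 lower) it and the median-gene shift gave 7 each, with 17 to 19 and 8 to 12 when 1 array was left out. DMSO over time (0 lower) had 1 member, PSMB6, with the replicate block within each day. The replicate block ended no call of a member at any of the 4 days, and with it within each day PSMB4 and PSME4 lost theirs in EZH2i over time.

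Among called differences, only that of PSMB2 changed sign, with the mean of its probe sets, at day 3 (0.11) and day 6 (0.20). All other changes of sign were in differences that were called neither before nor after. At day 6 these were PSMB4 (0.0089) with the median-gene shift, PSMF1 (-0.17) and PSMD10 (-0.030) with the mean of probe sets, PSMD9 with renormalized values (0.019), the median-gene shift (0.080) and the mean of probe sets (0.024), and PSMD4 with renormalized values (0.028), array medians subtracted (0.014) and the median-gene shift (0.10). At days 1 and 2 they were PSMB6 with array weights (0.0016 and 0.024) and, at day 2, PSMB6 with the median-gene shift (0.020) and PSMB7 with the mean of probe sets (-0.13). The shift of PSMB10 minus PSMB7 at day 2, 0.11, became 0.24 with the mean of probe sets. Leaving out 1 array at a time turned the sign of further uncalled differences. At day 1 the ranges were -0.027 to 0.062 for PSMB10, -0.015 to 0.073 for PSMB5, -0.092 to 0.056 for PSMB6, -0.035 to 0.17 for PSMB8, -0.014 to 0.058 for PSMB9 and -0.031 to 0.12 for PSME1. At day 2 they were -0.12 to 0.096 for PSMB6 and -0.066 to 0.10 for PSMB7, at day 3 -0.14 to 0.0043 for PSMB6, and at day 6 -0.013 to 0.088 for PSMD10, -0.094 to 0.053 for PSMD4 and -0.10 to 0.068 for PSMD9. Over all named differences of members, 70 of the recomputed values lost their call and 29 gained one, against 1044 that kept both. For members not called at days 1 to 3, 113 of 1501 recomputed differences changed sign, none of them into a call, and 27 became calls. The cause of these changes was not tested. Without counts, the number of arrays limits the precision.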
